A study of Mus musculus with 4 samples.

Results

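The genes followed here are 10 of calcium/calmodulin signalling, the calcium/calmodulin-dependent kinases Camk2a, Camk2b, Camk2d, Camk2g, Camk4, Camk1 and Camk1d, their upstream kinases Camkk1 and Camkk2, and Nrgn, which encodes neurogranin. They were taken by symbol from the 32531 gene rows, and all 10 passed the filter on low counts. RNA came from dorsal striatum or nucleus accumbens dissected from mice older than 20 months of the Drd1-TRAP CP73 line, in which Drd1 regulatory sequence drives ribosomal protein Rpl10a fused to EGFP. Both regions had 2 libraries, replicates 1 and 2, all of them input RNA, so cells without the transgene contributed as well and no control without it was used here. The labels name no separate animals, and p-values therefore measure only the spread between these libraries, which may be technical.

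Calcium that enters a neuron binds calmodulin, and calcium-loaded calmodulin opens the autoinhibited catalytic site of these kinases. CaMKII, built from alpha, beta, gamma and delta subunits encoded by Camk2a, Camk2b, Camk2g and Camk2d, is a holoenzyme of the postsynaptic density that keeps part of its activity after it phosphorylates itself. CaMKI and CaMKIV need a further phosphorylation by a CaM kinase kinase, and CaMKIV acts in the nucleus on the transcription factor CREB. Neurogranin is a small postsynaptic protein that holds calmodulin while calcium is low and releases it as calcium rises.

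The coding sequences show the calmodulin-binding part of neurogranin and the part of CaMKII that governs its lasting activity. They are from GENCODE M21 transcripts on GRCm38, the assembly that mm10 names. Neurogranin is encoded by 78 codons, and the capitals mark the core of its calmodulin-binding IQ motif, codons 33 to 39, in exon 2 at chr9:37546073-37546093 on the minus strand. For Camk2b, Camk2d and Camk2g, 57 bases of the regulatory segment from codon 284 are shown, with capitals on the 4 codons that end at the autophosphorylated threonine.
Nrgn: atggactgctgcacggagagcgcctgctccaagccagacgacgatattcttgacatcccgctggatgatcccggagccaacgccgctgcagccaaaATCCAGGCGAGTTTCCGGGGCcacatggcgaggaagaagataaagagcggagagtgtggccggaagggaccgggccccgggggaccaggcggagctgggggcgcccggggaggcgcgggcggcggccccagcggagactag
Camk2b: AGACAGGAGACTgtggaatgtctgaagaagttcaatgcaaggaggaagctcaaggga
Camk2d: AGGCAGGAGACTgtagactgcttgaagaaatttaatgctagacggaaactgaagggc
Camk2g: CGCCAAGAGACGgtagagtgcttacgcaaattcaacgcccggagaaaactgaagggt
These stretches span exons 11 and 12 of each transcript, at chr11:5988141-5989008 on the minus strand, chr3:126797732-126798240 on the plus strand and chr14:20760184-20760450 on the minus strand. Camk2b and Camk2d shared 44 of the 57 bases, Camk2b and Camk2g 37, and Camk2d and Camk2g 40. Over the longest coding transcript of each gene, Camk2b, Camk2d and Camk2g had 0 stretches of 50 bases in common with any other gene, and the 22 such stretches of Camk2a lay in genes outside this family. Reads of that length from these transcripts could therefore be assigned to one CaMKII gene. Exon bases numbered 22493 for Camk2d and 9125 for Camk2b, against 5524 and 4023 in the longest coding transcripts, and exons outside those transcripts were not checked. The read length is not given in the sources used here.

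Libraries held 8478403 to 11849134 counts assigned to genes. At least 1 count was seen for 19519 and 19532 genes in dorsal striatum and for 16915 and 17417 in accumbens. Of 13 markers of spiny projection neurons, the main neurons of both regions, all were above the filter, and Ppp1r1b, which encodes DARPP-32, lay between 949 and 1259 CPM (counts relative to library size, scaled with TMM factors). Markers of cortical excitatory neurons summed to 158 and 69.4 CPM in dorsal striatum replicates 1 and 2, against 383 and 224 CPM in the respective accumbens libraries (10 genes, 9 of them tested and 0 past the threshold). Of the defining ones, Slc17a7 was at 32.3, 0.717, 198 and 79.4 CPM in the same order and Tbr1 at 14.2, 5.26, 30.5 and 30.1 CPM. Neurod6 had 0 counts in dorsal striatum replicate 2 and at least 59 elsewhere, and Emx1 had 1 to 6 counts per library.

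Summed over the 13 spiny neuron markers, dorsal striatum replicates 1 and 2 had 8210 and 8385 CPM, against 7526 and 6357 CPM in the respective accumbens libraries, a sum to which Pde10a and Rgs9 gave the most in dorsal striatum. Of these markers 5 had a positive and 8 a negative log2 fold change. Without overlap, 3 of the markers were higher and 6 lower in accumbens (25.6% of all tested genes on each side). Rgs9 was lower and the one past the threshold. Penk, Tac1 and Gng7, the 3 that were higher without overlap, had log2 fold changes of 0.48, 0.47 and 0.38 and did not pass it. For 7 astrocyte markers the sums were 2799 and 1916 against 3176 and 2709, most of it from Slc1a2 (2448 and 1700 against 2844 and 2401). Of these 7 markers, 5 had a positive log2 fold change and 2, Aqp4 and Gfap, a negative one. Gja1 was past the threshold and higher in accumbens. For 7 oligodendrocyte markers the sums were 2476 and 1731 against 2393 and 2759, with 5 log2 fold changes positive and 2 negative (0 past the threshold). Sums for 6 microglia markers were 69.6 and 49.3 against 82.8 and 77.0, and for 4 endothelial markers 13.6 and 5.02 against 36.9 and 9.75 (0 past it in both lists).

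The question was how the levels of these genes differ between accumbens and dorsal striatum in old animals. Camk2a was higher in accumbens, and Camk4 and Nrgn were lower there. These 3 of 10 genes had an adjusted p under 0.05 over the 14493 tested genes in the quasi-likelihood test of edgeR, as did 1.28% of all tested genes, 0.994% being higher in accumbens and 0.290% lower. That was 144 genes higher and 42 lower, against 128 and 62 with upper-quartile scaling and 72 and 172 with library size alone. The genes were chosen by their place in this pathway with these regional CPM values and fold changes already known, so their differences are given as a description and the count supports nothing further. The median log2 fold change (accumbens over dorsal striatum) was 0.04 over the 10 genes and 0.02 over all tested genes. In tissue RNA, fewer cells of a type and less RNA per cell cannot be told apart.

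**Figure D1:**
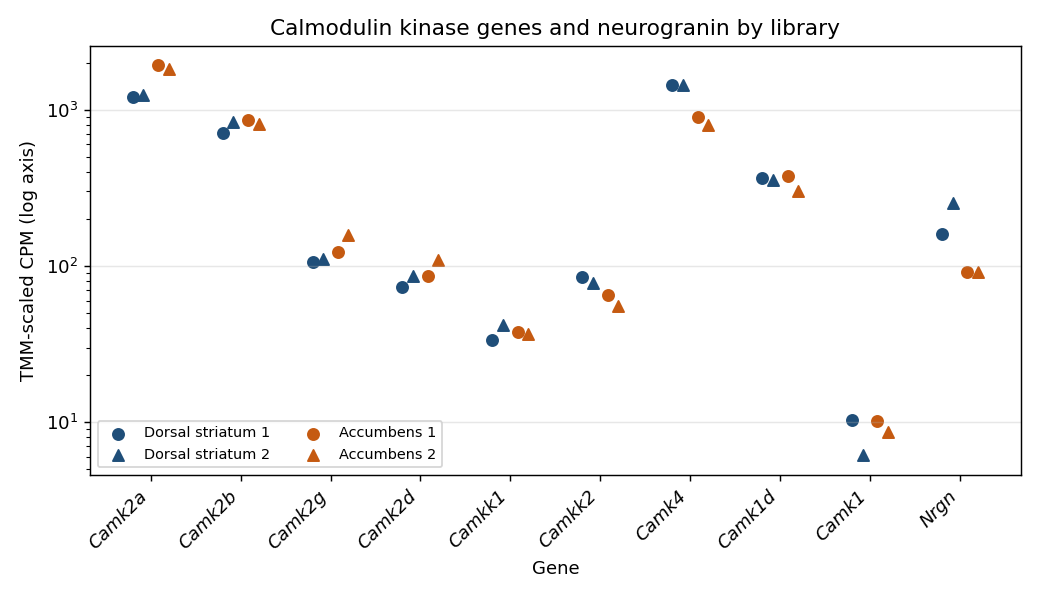
TMM-scaled CPM of the 10 genes on a log axis, 1 point per library, blue for dorsal striatum and orange for accumbens, circles for replicate 1 and triangles for replicate 2. Both accumbens points lie above both dorsal striatum points for Camk2a (1823 and 1926 against 1216 and 1241 CPM), Camk2g and Camk2d. Both lie below the dorsal striatum points for Camk4, Camkk2 and Nrgn.

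Nrgn, whose coding sequence with the IQ motif is printed in full, had the largest difference of the 10 genes. The gene lies on chromosome 9 from 37544492 to 37552904 on the minus strand. Dorsal striatum replicates 1 and 2 had 160 and 255 CPM. Accumbens replicates 1 and 2 had 91.3 and 91.4 CPM. The regions did not overlap, the dorsal striatum libraries were 1.60-fold apart, and the accumbens libraries were almost equal. The means were 207 ± 67.2 CPM in dorsal striatum and 91.3 ± 0.0635 CPM in accumbens (SD, n = 2 each), and the log2 fold change was −1.18 (SE 0.22). Its size rested on the higher dorsal striatum library: without dorsal striatum replicate 2 the log2 fold change was −0.81 and no longer past the threshold, and without dorsal striatum replicate 1 it was −1.50. With size factors from DESeq2 in place of TMM factors it was −1.19 and just short of the threshold.

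The cortical marker Slc17a7 and Nrgn stood in opposite order in dorsal striatum, where replicate 1 had more Slc17a7 and less Nrgn than replicate 2. Between the accumbens libraries Slc17a7 differed from 198 to 79.4 CPM, with Nrgn the same to within 0.1 CPM. The part of cortical RNA in the Nrgn difference was not tested.

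Among the CaMKII genes, Camk2a, which encodes the alpha subunit, was the one past the threshold. It lies on chromosome 18 from 60925618 to 60988152. Dorsal striatum replicates 1 and 2 had 1216 and 1241 CPM, against 1926 and 1823 CPM in the respective accumbens libraries. The regions were well apart beside a spread of 1.02-fold and 1.06-fold between replicates. The means were 1228 ± 17.3 CPM and 1875 ± 72.7 CPM, a log2 fold change of 0.61 (SE 0.10). Scaling by library size alone, which moved the median of all genes from 0.02 to −0.15, left 0.44 for Camk2a and ended its call. Slc17a7 was higher in accumbens too, and its part in this difference was not tested. Within dorsal striatum, Slc17a7 went from 0.717 to 32.3 CPM while Camk2a was at 1241 and 1216 CPM.

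Camk2b, which encodes the beta subunit that ties the holoenzyme to actin, was at 716 and 838 CPM in dorsal striatum and 858 and 807 CPM in accumbens. Its regions overlapped, with a log2 fold change of 0.10 (SE 0.12) that turned to −0.07 with library size scaling. The gamma subunit gene Camk2g was at 106 and 110 CPM in dorsal striatum and 122 and 159 CPM in accumbens (log2 fold change 0.38, SE 0.16). The delta subunit gene Camk2d was at 73.2 and 86.4 CPM in dorsal striatum and 86.8 and 109 CPM in accumbens (0.30, SE 0.18). Neither Camk2g nor Camk2d passed the threshold, although their regions did not overlap. Leaving out accumbens replicate 1 brought Camk2g past it at 0.55, together with 18.2% of all tested genes, and leaving out accumbens replicate 2 gave 0.18.

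Per kilobase of the longest coding transcript, the 4 CaMKII genes summed to 465 and 503 CPM per kb in dorsal striatum and 650 and 630 CPM per kb in accumbens. These sums move with the scaling between libraries, while the shares within a library do not. Camk2a made up 52.7% and 49.6% in the dorsal striatum libraries, against 59.7% and 58.2% in the accumbens libraries. The mean share was 51.1% ± 2.18 against 58.9% ± 1.02 (SD, n = 2 each), a difference of 7.82 percentage points. The share of Camk2b was correspondingly 38.3% and 41.4% against 32.8% and 31.9%. Camk2g and Camk2d together stayed a minor part, Camk2g between 5.09% and 6.79% and Camk2d between 2.42% and 3.14%. The level of Camk2a relative to Camk2b per kb was 1.38 and 1.20 for dorsal striatum, against 1.82 and 1.83 for accumbens.

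**Figure D2:**
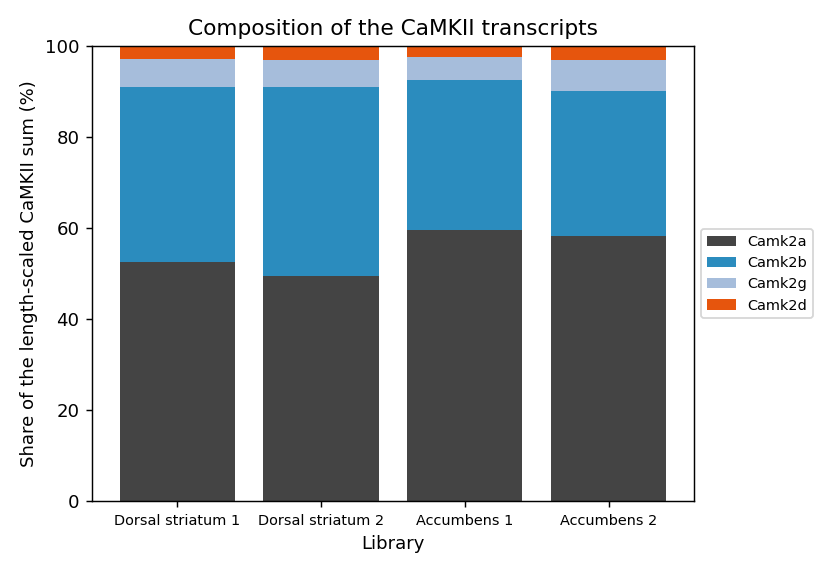
Share of each gene in the summed CPM per kb of the 4 CaMKII genes, in percent, 1 stacked bar per library. The Camk2a part is 52.7% and 49.6% in the dorsal striatum bars and 59.7% and 58.2% in the accumbens bars, with Camk2b smaller in accumbens.

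The CaMKIV gene Camk4 went the other way. It lies on chromosome 18 from 32934931 to 33191228. Dorsal striatum replicates 1 and 2 had 1447 and 1446 CPM, against 896 and 804 CPM in the respective accumbens libraries. The dorsal striatum libraries were almost equal and both accumbens libraries were lower. The means were 1446 ± 0.874 CPM and 850 ± 65.2 CPM, so that dorsal striatum was 1.70-fold higher (log2 fold change −0.77, SE 0.11). Camk4 was past the threshold in each of the 12 alternative analyses that included it, with log2 fold changes from −0.94 to −0.69. The summed spiny neuron markers were also lower in both accumbens libraries, although 5 of the 13 had a positive log2 fold change, and their part in the lower Camk4 and Nrgn was not tested. The exons of Camk4 overlap those of the antisense gene 2310026I22Rik over 72 bases, 2.21% of their length. The sources used here do not say whether counting used the strand.

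Among the other genes of this cascade, Camkk2, which encodes the CaM kinase kinase that also phosphorylates AMP-activated protein kinase, was at 85.0 and 77.3 CPM in dorsal striatum and 65.5 and 55.1 CPM in accumbens. These values did not overlap, and the log2 fold change of −0.43 (SE 0.17) was not past the threshold. Without accumbens replicate 1 the log2 fold change was −0.56, and without accumbens replicate 2 it was −0.31. Camkk1, the other kinase kinase gene, was at 33.4 and 41.8 CPM in dorsal striatum and 37.9 and 36.6 CPM in accumbens, with overlapping regions. Camk1d, which encodes CaMKI delta, was at 365 and 357 CPM in dorsal striatum and 375 and 301 CPM in accumbens, again with overlap.

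Camk1, which encodes CaMKI alpha, was the lowest of the 10 genes, at 10.3 and 6.14 CPM in dorsal striatum and 10.2 and 8.63 CPM in accumbens. That corresponds to 69 to 98 counts per library, and its standard error of 0.41 on the log2 scale was the widest. Its exons overlap those of Ogg1 on the opposite strand over 232 bases (3.88%), so its counts are uncertain without strand. In all, 3 of the 10 genes were higher in accumbens without overlap and 3 lower without overlap, where 25.6% of all tested genes fell on each side, 51.2% in all.

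The order of the levels per kb changed at the top between regions. In dorsal striatum Camk4 led at 532 ± 0.323 CPM per kb, ahead of Camk2a at 247 ± 3.48, Camk2b at 193 ± 21.5 and Nrgn at 142 ± 46.3. In accumbens Camk2a led at 377 ± 14.6 CPM per kb, followed by Camk4 at 313 ± 24.0, Camk2b at 207 ± 8.85 and Nrgn at 62.9 ± 0.0437. Camk4 also stood above Camk2a in dorsal striatum, and below it in accumbens, in CPM not divided by length. The ratio of Camk2a to Camk4 per kb was 0.459 and 0.469 for the dorsal striatum libraries, against 1.18 and 1.24 for accumbens.

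Camk1d, Camk2g, Camkk2, Camk2d, Camkk1 and Camk1 followed in that order in dorsal striatum, from 51.8 down to 5.49 CPM per kb. In accumbens Camk2d stood above Camkk2, at 17.8 ± 2.87 against 12.4 ± 1.51 CPM per kb. In dorsal striatum replicates 1 and 2, Camkk2 was at 17.5 and 15.9 and Camk2d at 13.3 and 15.6 CPM per kb. Neighbours in either order did not overlap between libraries of the region. The closest pairs were Camkk2 and Camkk1 in accumbens, 1.53 CPM per kb apart with an SD of 1.51, and Camk2b and Nrgn in dorsal striatum, 50.7 apart with an SD of 46.3. A transcript longer than the annotated one would lower a gene's level per kb and could change its place in either order. Whether the regions used the same transcripts was not tested.

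**Figure D3:**
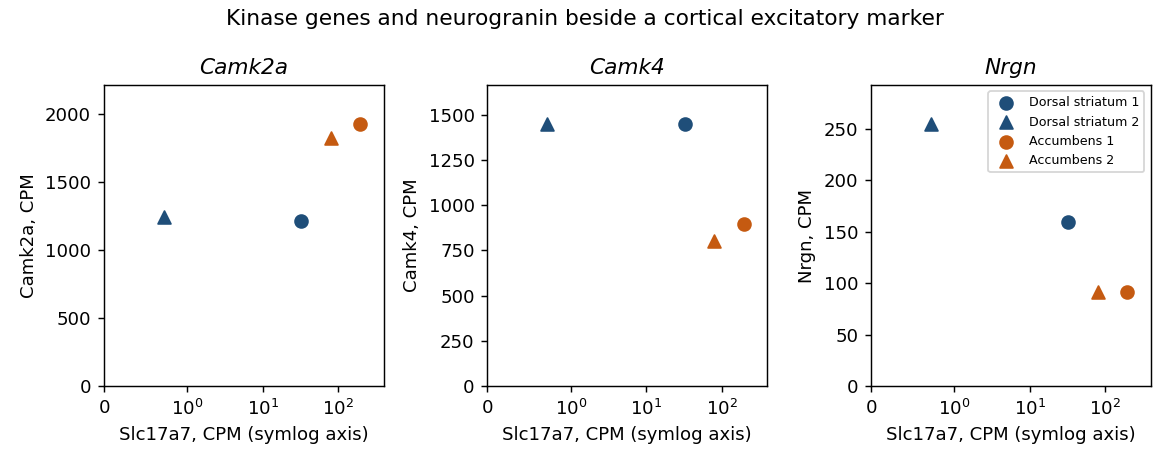
CPM of Camk2a, Camk4 and Nrgn (vertical axes, from 0) against CPM of the cortical excitatory marker Slc17a7 (horizontal axes, linear below 1 and logarithmic above), 1 point per library, blue for dorsal striatum and orange for accumbens. The dorsal striatum libraries differ in Slc17a7 (32.3 and 0.717 CPM) while their Camk2a and Camk4 levels are close, and Nrgn is higher where Slc17a7 is lower.

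Other genes of the pathway were taken from lists of calmodulin genes, further IQ motif proteins, other calmodulin-dependent kinases, CaM kinase inhibitors and phosphatases, and CaM kinase partners and substrates. Of 33 such genes 31 were tested and 0 passed the threshold with edgeR, while 12 had an unadjusted p under 0.05, 8 higher and 4 lower in accumbens (19.2% of all tested genes did). With DESeq2 the count was 4, where 11.2% of all genes given an adjusted p passed, and with limma-voom it was 2, where 2.97% passed. The median log2 fold change of the 31 genes was 0.16, beside 0.02 for all tested genes.

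Calm2 and Calm3 encode calmodulin itself. Calm2 was at 1820 and 1756 CPM in the dorsal striatum libraries, against 2293 and 2097 CPM in the accumbens libraries (a log2 difference of 0.30 with an SE of 0.10, edgeR adjusted p = 0.178). Calm3 was at 307 and 376 CPM against 488 and 426 CPM (0.42, SE 0.14, edgeR adjusted p = 0.173). For both genes the regions did not overlap, and neither passed the threshold. Of the other IQ motif proteins, Pcp4l1 was at 350 ± 36.0 CPM in dorsal striatum and 352 ± 45.4 CPM in accumbens, and Gap43, the growth-associated protein of axon terminals, at 297 ± 71.5 and 359 ± 18.8 CPM (edgeR adjusted p = 0.987 and 0.425). Pcp4 had 2 to 6 counts per library and was not tested.

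Camk2n1, which encodes an inhibitor protein of CaMKII, was at 789 and 714 CPM in dorsal striatum and 575 and 564 CPM in accumbens. These libraries did not overlap, with a log2 fold change of −0.40 (SE 0.11) that missed the threshold (edgeR adjusted p = 0.123). Per library, the CPM of Camk2n1 divided by that of Camk2a was 0.649 and 0.575 for dorsal striatum, against 0.298 and 0.309 for accumbens. Ppm1e, which encodes a phosphatase acting on CaM kinases, was at 154 ± 9.93 and 170 ± 24.5 CPM (edgeR adjusted p = 0.667). Among the other calmodulin-dependent kinases, Camkv, whose product resembles these kinases but lacks catalytic activity, was at 236 ± 33.1 and 239 ± 2.41 CPM, and Dapk1, the death-associated protein kinase gene, at 123 ± 1.78 and 134 ± 3.25 CPM (edgeR adjusted p = 0.964 and 0.679).

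Of 14 partner and substrate genes, 8 had a positive and 6 a negative log2 fold change. Lrrc7, which encodes the CaMKII-binding scaffold densin, was at 469 ± 11.1 CPM in dorsal striatum and 539 ± 57.6 CPM in accumbens, and Gria1, the AMPA receptor subunit gene whose product CaMKII phosphorylates, at 520 ± 32.3 and 490 ± 13.2 CPM (edgeR adjusted p = 0.420 and 0.748). The lowest adjusted p-values in this group, picked out after their values were seen, belonged to Crtc1, a CREB coactivator gene, at 210 ± 25.9 and 337 ± 56.1 CPM (edgeR adjusted p = 0.0801, with a log2 fold change of 0.68 and an SE of 0.16), and to Actn2, which encodes the CaMKII-binding actin cross-linker alpha-actinin 2, at 86.4 ± 8.40 and 43.1 ± 15.2 CPM (edgeR adjusted p = 0.0861).

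**Figure D4:**
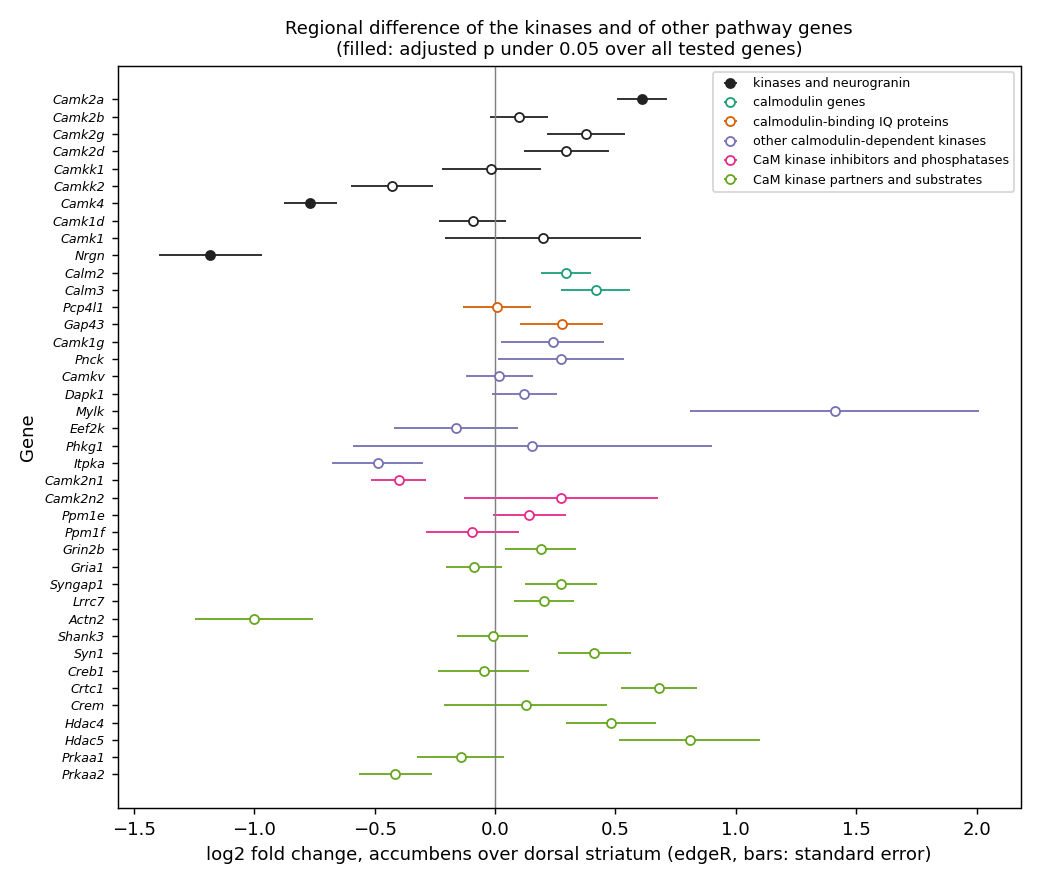
Log2 fold change of accumbens over dorsal striatum from edgeR with standard errors (n = 2 libraries per region), for the 10 genes in black and the tested pathway genes that are reported here in colour by list. Filled points, Camk2a at 0.61, Camk4 at −0.77 and Nrgn at −1.18, had an adjusted p under 0.05 over all tested genes, and open points did not.

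The genes with regional profiles closest to Nrgn were sought among 6671 tested genes with a mean of at least 20 CPM, by the distance between log2 CPM over the 4 libraries after each gene was centred on its own mean. The 5 nearest were Arhgdib, Nol10, Hras, Pld5 and Syndig1l, at distances of 0.259 to 0.384 on the log2 scale. Hras, which encodes a small GTPase, was at 47.6 and 55.7 CPM in dorsal striatum and 27.0 and 25.4 CPM in accumbens. Syndig1l, whose product is a membrane protein also called capucin, was at 127 and 152 CPM against 77.7 and 67.8 CPM. These genes were chosen for that likeness, and it is given without a test.

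**Figure D5:**
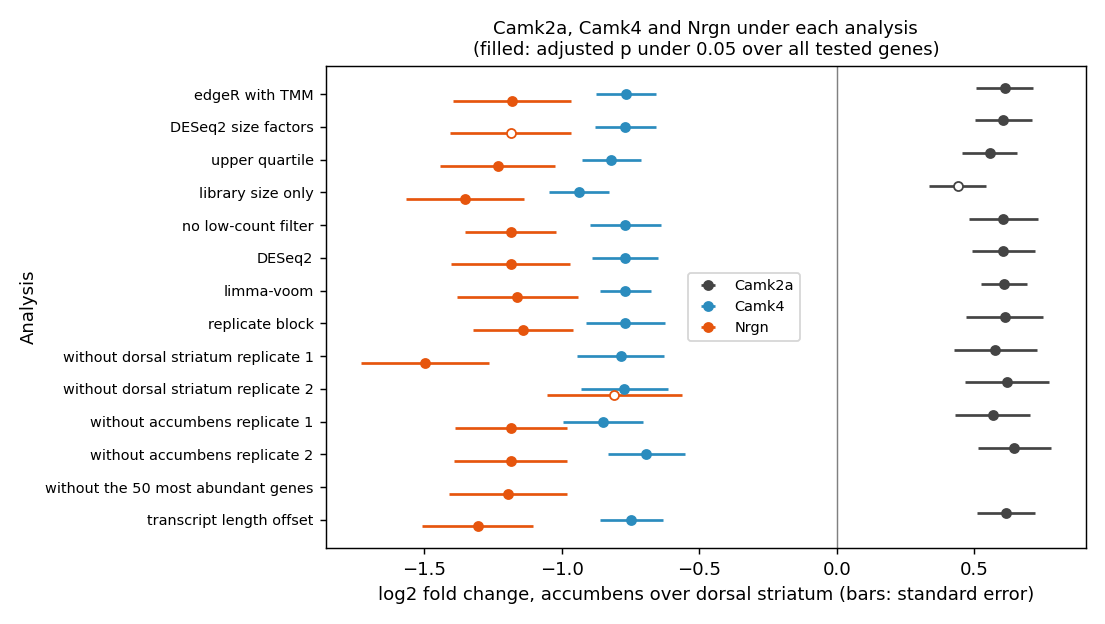
Log2 fold change with standard error of Camk2a, Camk4 and Nrgn (accumbens over dorsal striatum) under each analysis, 1 row per analysis, filled where the adjusted p over all tested genes was under 0.05. Camk2a stays above 0 and the other two below it in each row, Nrgn ranges from −1.50 to −0.81, and Camk2a and Camk4 have no point where the 50 most abundant genes were left out, since they are among them.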

How the data were processed

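Per the submitters' processing notes, STAR 2.0.0e aligned the reads to mm10 and HTSeq counted them. The values the authors deposited are raw counts, with a separate table for every library. Neither the gene annotation nor the strandedness of this step is given in the sources used here. Summary lines without a gene were set aside: no-feature reads were 27.5% to 35.4% of all counted rows, ambiguous reads 6.06% to 9.46%, and reads aligned to several places 6.98% to 10.2%.

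Counts were filtered with filterByExpr (14493 genes left), scaled with TMM and tested with edgeR 4.0.16 (glmQLFit, glmQLFTest, two-sided, a single region term, Benjamini-Hochberg over all tested genes). Each SE equals the absolute log2 fold change over the square root of F. Alternatives were other scalings, no low-count filter, DESeq2 1.42.0, limma-voom 3.58.1, a replicate block, each library left out, the 50 most abundant genes left out, and an offset for transcript length (lowess, span 0.3). Lengths, coordinates and sequences are from GENCODE M21. Chi-square per degree of freedom between replicate libraries was 13.1 and 16.0, more than counting noise alone gives, so no table was treated as one library deposited again. This does not show that the replicates came from separate animals.

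The members and lists were chosen with earlier results of these data known. By rule, the text names all 10 members and, from each pathway list, genes past the threshold or else its 2 genes with the highest mean CPM. Single genes of these lists that are not reported here still enter the lists' counts, medians and sums, and Calm3 is named in place of one of them, chosen after its values were seen.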

Additional observations from a re-analysis of the deposited data

How the results depend on the processing

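Against 186 genes past the threshold in the TMM-scaled edgeR analysis, the count was 1203 with no low-count filter, 933 with DESeq2, 431 with limma-voom and 843 with the replicate number as a block (replicate block), and 109 to 4464 with 1 library left out. The replicate numbers are shared by label only: the deviations of same-numbered libraries had a correlation of 0.0326. Of the 10 kinase and neurogranin genes, 3 passed, 3 with the replicate block, 2 to 5 with 1 library left out, and 1 without the 50 most abundant genes, 2 of the passing genes being among those left out. Where 1 library was left out, the lone library of that region was taken to vary like the other pair, and without accumbens replicate 1 or 2, 18.2% and 28.9% of all tested genes passed. Of the 31 pathway genes, against 0 in the main analysis, 3 passed with no low-count filter, 4 with DESeq2, 2 with limma-voom, 3 with the replicate block, and 0 to 9 with 1 library left out. Beside these counts, 5.68% of all 21169 genes fitted passed with no low-count filter, and 5.82% of all tested genes passed with the replicate block. In the analyses that kept every library, Crtc1 and Actn2 were among the passing pathway genes each time any passed. Camk2n1 passed in 1 of those analyses, the one with DESeq2. The higher Camk2a share of CaMKII was 6.27 to 9.36 percentage points with 1 library left out and 7.57 from raw counts. Over 13 alternatives each, the log2 fold change ranged from 0.12 to 0.45 for Camk2d and from −0.60 to −0.31 for Camkk2, with no change of sign, and changed sign in some of them for Camk2b, Camk1, Camk1d and Camkk1. Of these 6 genes, Camkk2 passed the threshold in 1 alternative, without accumbens replicate 1, and the others in 0.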
